A study of Mus musculus with 20 samples.

Results

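The 10 genes described here belong to the major histocompatibility complex (MHC) and to antigen presentation, and were measured by RNA-seq of the adult mouse hippocampus after gestational exposure to nPM, the nano-sized particulate matter of urban air. They were chosen by name, as the genes whose symbol in the deposited gene map was H2-K1, H2-D1, B2m, Tap1, Tap2, Psmb8, Psmb9, H2-Aa, H2-Ab1 or Cd74. All 10 of 10 were found among the 48709 genes of the count table, and all 10 were among the 19797 genes that passed the filter on low counts. The 20 samples came from C57BL/6 mice (C57BL/6J in the study's methods), 5 in each group of sex and exposure. From gestational day 2 until birth, dams of the nPM groups inhaled nPM on 3 days of each week, 5 h at a time, and dams of the control groups inhaled filtered air. The labels give the dose as 300 mg/m3, where the study's methods have μg in place of mg. Ages at collection were 17.71 to 18.29 weeks in females and 18.57 to 19.14 weeks in males, so sex and age cannot be told apart. The study's methods also describe a forced swim test and a glucose challenge of the offspring, and injections of EdU, a label of dividing cells, in males. Those methods limit EdU to males and state that all of them were injected, so EdU and sex cannot be told apart either. Which sequenced animals had the swim test or the glucose challenge is not in the labels. The brains had been perfused with saline before the right hippocampus was taken. Litters were several per exposure, but which samples share a litter is not given, so the spread between samples may mix litters.

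MHC class I molecules, which nearly all nucleated cells can make, show peptides from inside the cell to CD8 T cells. Their heavy chains are encoded by H2-K1 and H2-D1 and pair with the light chain B2m. The peptides are cut by proteasomes that can carry the inducible subunits Psmb8 and Psmb9, and are pumped into the endoplasmic reticulum by the Tap1-Tap2 transporter. MHC class II molecules, made here by H2-Aa and H2-Ab1, show peptides from outside the cell to CD4 T cells, and Cd74, the invariant chain, guards their groove until they are loaded. In the healthy brain class II is mostly found in macrophages and dendritic cells at the borders, such as the meninges and the choroid plexus, while neurons, glia and most microglia hold little of it. Interferon raises both classes, and Nlrc5 and Ciita are the master regulators of class I and class II.

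The upstream sequences are shown because the members come from both MHC classes and varied together across samples. RefSeq promoters of GRCm38.p6, the same build as mm10, were searched for 7 of the 10 genes, namely B2m, H2-K1, H2-D1, Psmb8, Psmb9, Tap1 and H2-Aa. H2-Ab1 and Tap2 had no entry, and Cd74 was left out of the search. The last 130 bases before the transcript start are given 5′ to 3′ for H2-Aa (chr17:34287824-34287953, minus), B2m (chr2:122147557-122147686, plus) and H2-K1 (chr17:34000334-34000463, minus), for which the start nearest to the gene's end in the files was taken. Capitals mark matches on either strand to TGACG, the core of the X2 box and of cyclic AMP response elements, to ATTGG, the core of the CCAAT or Y box, to GAANNGAAA, an interferon response type motif, and to GGGATTCCC, a kappa B motif. In H2-Aa the matches to TGACG on both strands overlap in a single run of capitals.
H2-Aa: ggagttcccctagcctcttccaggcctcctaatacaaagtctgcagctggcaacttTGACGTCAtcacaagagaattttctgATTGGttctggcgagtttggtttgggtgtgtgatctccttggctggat
B2m: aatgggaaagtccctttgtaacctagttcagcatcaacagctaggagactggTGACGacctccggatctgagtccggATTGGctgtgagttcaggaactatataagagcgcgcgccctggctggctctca
H2-K1: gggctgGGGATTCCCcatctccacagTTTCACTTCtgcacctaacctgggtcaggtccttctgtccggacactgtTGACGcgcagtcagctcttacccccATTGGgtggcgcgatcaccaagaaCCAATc

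In these 3 sequences TGACG was followed on the same strand by ATTGG, with 20 bases between them in B2m and H2-K1 and 21 in H2-Aa. H2-D1 held the same pair with 20 bases between. A spacing of 20 to 21 bases, a pattern chosen after these sequences had been read, was found in 4 of the 7 members and in 27 of the 32851 promoters of the table (0.082%) over the 250 bases before the start. Alone, TGACG was found in 17.8% and ATTGG in 33.8% of these promoters. Only H2-K1 and H2-D1 of the 7 held GAANNGAAA, which 6.31% of all promoters held, and GGGATTCCC, which 0.301% held. In H2-K1 these lie 104 to 96 and 124 to 116 bases before the start. The RefSeq starts of Psmb9 and Tap1 lie on opposite strands with 225 bases between them. A match is a description of the letters and shows no binding.

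On mm10, 8 of the 10 genes lie on chromosome 17 in the MHC region. From H2-K1 (chr17:33996017-34000333, minus strand) the order was Psmb9 (chr17:34181988-34187764, minus), Tap1 (chr17:34187553-34197225, plus), Psmb8 (chr17:34197721-34201454, plus), Tap2 (chr17:34203527-34216321, plus), H2-Ab1 (chr17:34263209-34269418, plus), H2-Aa (chr17:34282744-34287827, minus) and H2-D1 (chr17:35262730-35267499, plus). B2m is apart from them at chr2:122147686-122153083 on the plus strand, and Cd74 at chr18:60803848-60812646 on the plus strand. Several share bases with a gene on the other strand. Psmb9 and Tap1 overlap by 212 bases, Psmb8 overlaps Gm20496 by 2139 bases, Tap2 overlaps Gm20496 by 1923 and Gm15821 by 3148 bases, and B2m lies within Patl2 over 5398 bases. The strand setting of the counting and its rule for reads with several alignments are not given in the sources used here. Reads of these overlaps, and reads of the near-identical class I paralogs H2-K1 and H2-D1, are therefore uncertain in their assignment.

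Total counts were 19092067 to 38663408 per sample. Markers of the hippocampus (Prox1, Wfs1, Grik4, Neurod6 and Zbtb20) and of neurons were present in all samples. Markers of lymphocytes were near absent, since Cd79a, Cd79b, Ms4a1, Cd3e, Cd3d, Cd3g and Cd8a had a median of 3 counts or fewer. Summed T and NK cell markers were 0.114 to 0.780 CPM (counts scaled to the same library total). Of 7 dendritic cell markers, Xcr1, Clec9a and Ccr7 also had a median of 3 counts or fewer. The sum of all 7 was nevertheless 13.3 to 27.8 CPM, so the dendritic cell list was not absent. Of the marker lists, that of the choroid plexus differed most between samples. The sum of its 7 genes (Ttr, Folr1, Kl, Kcnj13, Clic6, Otx2 and Sostdc1) ran from 33.2 to 8476 CPM. It was 1000 CPM or more in 7 samples, namely control males 2, 4 and 5, nPM females 1 and 5 and nPM males 2 and 3, and in none of the control females. In bulk tissue, more cells of a type and more RNA per cell cannot be told apart.

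Among the members, levels per length differed widely. In RPKM, reads per kilobase of transcript scaled to the library total, B2m had a mean of 62.3 over the 20 samples, and H2-D1 (6.49) and H2-K1 (4.94) came next. Tap2 was at 1.47 and Cd74 at 1.12. Psmb8 (0.670), H2-Aa (0.512), Tap1 (0.484), H2-Ab1 (0.364) and Psmb9 (0.214) were below 1 RPKM. Neighbours in this order of means were then compared, so the pairs and their order came from the same values that were tested. Each of B2m, H2-D1 and H2-K1 was above the next gene in the order in 20 of 20 samples (sign-flip permutation test of the log2 ratio, p = 1e-05, the smallest that 100000 resamples can give, and 3.00e-05 adjusted over 9 neighbour pairs). The RPKM of the light chain was thus above that of both heavy chains in each library. The log2 ratio of B2m over H2-D1 was 3.27 ± 0.23 (SD, n = 20). Reads of B2m, H2-D1 and H2-K1 are uncertain in assignment, as given above, and so are the ratios between these genes. Lower down, Tap2 lay above Cd74 in 14 of 20 samples (adjusted permutation p = 0.00401), Psmb8 above H2-Aa in 14 of 20 (adjusted permutation p = 0.00612) and Tap1 above H2-Ab1 in 16 of 20 (adjusted permutation p = 0.00401). Cd74 and Psmb8 (adjusted permutation p = 0.0665), H2-Aa and Tap1 (0.138) and H2-Ab1 and Psmb9 (0.328) did not differ beyond their spread by the same permutation test.

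**Figure D1:**
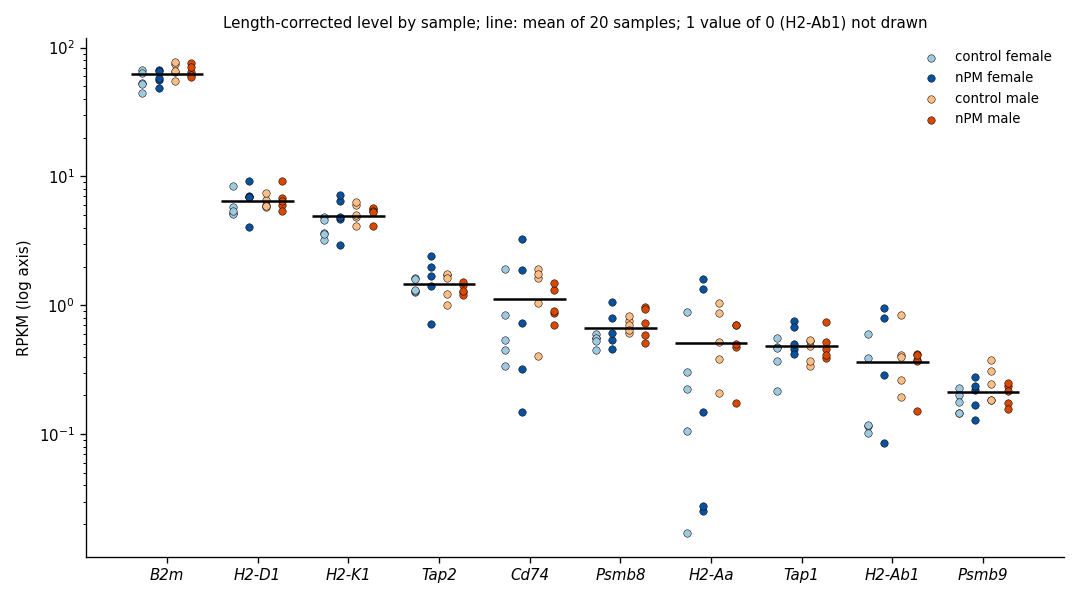
RPKM of the 10 genes on a log axis, each point a sample, coloured by group, and each line the mean of 20 samples. B2m sits at 62.3 and the other 9 genes at 0.214 to 6.49, and the points of H2-Aa, H2-Ab1 and Cd74 spread the most.

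Other genes of the pathway gave the setting for these levels. The constitutive proteasome subunits Psmb5 and Psmb6, which Psmb8 and Psmb9 replace, had mean RPKM of 56.4 and 34.9. Calr, a chaperone of class I assembly, was at 81.7 and Tapbp, which bridges class I and the transporter, at 5.00. In the class II branch, Ctss, a protease that trims the invariant chain, was at 39.2, the peptide exchange factor subunit H2-DMa at 3.22 and the class II chain H2-Eb1 at 0.587. The regulators Nlrc5 and Ciita were at 0.125 and 0.0179 RPKM, and Ciita had 0 counts in 2 samples and at most 11 counts. Irf1, which carries the interferon signal to class I genes, was at 1.30 RPKM.

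The class II genes varied far more between samples of the same group than the class I genes did. Within groups the SD of log2 CPM was 1.71 for H2-Aa, 1.41 for H2-Ab1 and 1.10 for Cd74, and 99.3%, 98.7% and 97.0% of all genes tested had a smaller one. The other 7 members had SDs from 0.171 (B2m) to 0.375 (Tap1), beside a median of 0.256 over all genes. Counting alone would give smaller SDs of 0.543, 0.606 and 0.285 for H2-Aa, H2-Ab1 and Cd74. For Psmb9, with 9 to 51 counts, the spread (0.341) was 1.09 times that of counting.

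H2-Aa, the class II alpha chain, had 17, 11, 1, 7 and 37 counts in control females 1 to 5 and 88, 1, 8, 1 and 72 in nPM females 1 to 5. In control males it had 20, 46, 11, 75 and 36 counts, and in nPM males 33, 41, 46, 12 and 31. In both female groups the counts thus ran from a single read to over 30, and the 2 highest values of all groups after depth, 1.61 and 1.34 RPKM, were those of nPM females 1 and 5. Over the 20 samples the highest CPM of H2-Aa was 94.0 times the lowest.

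H2-Ab1, the class II beta chain, had 19, 5, 6, 6 and 22 counts in control females 1 to 5 and 38, 10, 4, 0 and 45 in nPM females 1 to 5. The males had 12, 19, 9, 53 and 24 counts as controls and 23, 19, 24, 9 and 22 after nPM. The low sample of H2-Ab1 was nPM female 4, the library with the lowest total, with 0 counts, which allows up to 3. The high samples were nPM females 1 and 5 and control male 4. Cd74, the invariant chain, had 35, 20, 20, 17 and 60 counts in control females, 78, 22, 13, 4 and 133 in nPM females, 65, 76, 16, 96 and 54 in control males and 37, 38, 65, 47 and 69 in nPM males. All 3 genes therefore overlapped between control and nPM in both sexes.

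Class I was steadier. B2m was at 66.6, 53.0, 44.8, 63.4 and 51.8 RPKM in control females 1 to 5 and at 67.4, 56.4, 58.0, 48.2 and 65.5 RPKM in nPM females. In control males it was at 54.7, 74.5, 65.2, 77.7 and 66.4 RPKM and in nPM males at 64.2, 75.7, 61.5, 59.6 and 70.7 RPKM. The highest values were male and the lowest female, and control and nPM overlapped in each sex. H2-K1 was at 4.88, 3.22, 3.67, 3.60 and 4.62 RPKM in control females and at 6.49, 4.70, 4.86, 2.93 and 7.19 RPKM in nPM females. Here 2 nPM females stood above all controls and 1, nPM female 4, below them all. H2-K1 was at 4.10, 6.03, 4.88, 6.31 and 5.06 RPKM in control males and at 5.61, 5.72, 5.44, 4.13 and 5.30 RPKM in nPM males, 2 groups that overlapped. H2-D1 ranged from 4.02 RPKM in nPM female 4 to 9.24 RPKM in nPM male 1.

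Of the peptide supply genes, Tap1 was at 0.554, 0.216, 0.479, 0.371 and 0.467 RPKM in control females and at 0.762, 0.456, 0.502, 0.421 and 0.675 RPKM in nPM females. Psmb8 was at 0.554, 0.446, 0.596, 0.556 and 0.524 RPKM in control females and at 0.800, 0.534, 0.611, 0.459 and 1.07 RPKM in nPM females. For both genes nPM females 1 and 5 were the highest female samples. Tap2 ranged from 0.720 to 2.40 RPKM over all samples and Psmb9 from 0.129 to 0.377 RPKM, with the lowest value of each in nPM female 4.

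**Figure D2:**
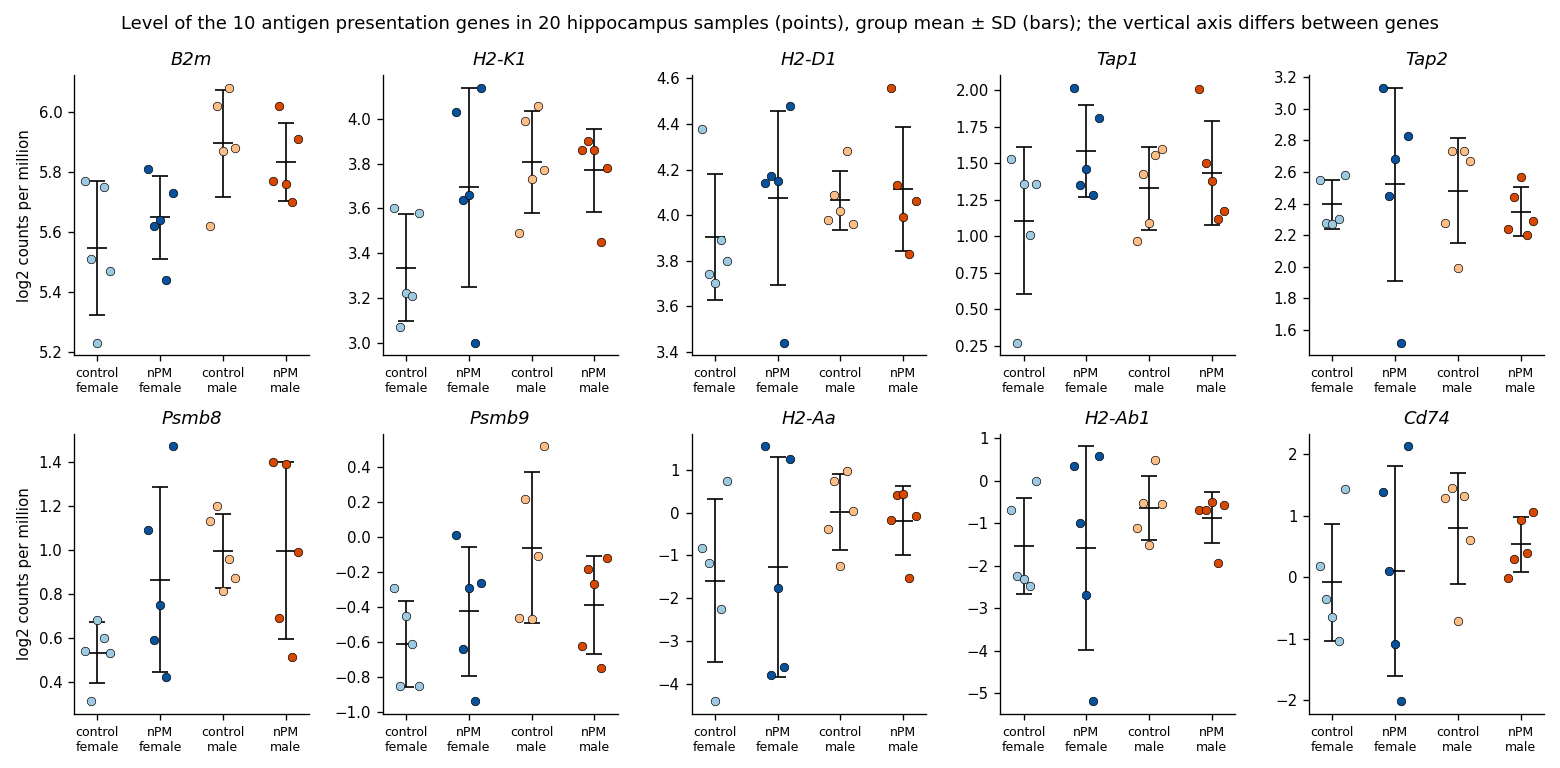
Level of each gene in log2 CPM by group, with a point per sample and bars for the group mean ± SD (n = 5), on an axis that differs between genes. Control and nPM samples overlap in both sexes for each gene, and the class II genes in females spread over several log2 units.

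The first question was whether gestational nPM changed these genes in the adult. limma-voom, a linear model fitted across all 19797 genes, was run on both sexes with sex as a covariate, on each sex alone, and for the interaction of sex and exposure. None of the 10 members had p under 0.005 in any of these 4 fits, nor by the edgeR or DESeq2 tests. At this threshold 0.141% of all genes were called with both sexes, 0.0909% in females, 0.207% in males and 0.217% in the interaction. At p under 0.05 the shares were 2.10%, 1.99%, 4.28% and 3.79%, and 1 member in 1 fit, H2-K1 in females, was below it. Adjusted p-values of the members in limma were 0.963 to 1.0 in the 4 fits. Exact permutation tests of the log2 CPM within a sex gave p between 0.127 and 0.984 for the 10 genes, where 0.00794 is the smallest that 5 against 5 allows.

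With both sexes the log2 fold change of nPM over control was 0.15 (SE 0.12) for H2-K1, 0.12 (SE 0.11) for H2-D1 and 0.018 (SE 0.074) for B2m. B2m was measured most tightly, with a 95% interval of -0.14 to 0.17. The class II genes were the least certain, and the interval of H2-Aa ran from -1.17 to 1.25. The intervals of H2-Aa and H2-Ab1 thus hold both no change and a 2-fold fall. Of the 10 members 7 had a positive value, with a median of 0.028, beside 47.0% of all genes and a median of -0.0059.

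In females all 10 members had a positive fitted value, from 0.12 for B2m to 0.70 for H2-Aa, with a median of 0.30, beside 51.2% of all genes and a median of 0.0038. H2-K1 was at 0.43 (SE 0.19, p = 0.0454, adjusted p = 1.0 in limma, exact permutation p = 0.183) and Tap1 at 0.52 (SE 0.25, p = 0.0575, adjusted p = 1.0 in limma, exact permutation p = 0.127). Psmb8 was at 0.38 (SE 0.22) and H2-D1 at 0.22 (SE 0.18). For H2-Ab1 the sign depended on the weights of the fit, at 0.22 (SE 0.93) in limma-voom and -0.048 as the plain difference of log2 CPM means, and nPM female 4 had no read of it. Choroid plexus markers, summed over all 7, were 49.0 to 506 CPM in control females and 55.9 to 8476 CPM in nPM females. Without the choroid plexus-rich nPM females 1 and 5, 6 of 10 members had a positive value and the median fell to 0.02. H2-K1 was then at 0.14, Tap1 at 0.27 and Psmb8 at 0.07, while the class II genes turned, to -1.25 for H2-Aa, -1.28 for H2-Ab1 and -0.82 for Cd74. With nPM female 1 alone left out 8 of 10 members had a positive value, and the same count was found without nPM female 5. Leaving out nPM female 4, the lowest sample of H2-K1, gave 0.57 for H2-K1, which then passed p under 0.005 in limma. The female values thus moved with which nPM females were counted.

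In males 3 of 10 members had a positive value, with a median of -0.11, beside 49.6% of all genes. Values ran from -0.36 (SE 0.25) for Psmb9 to 0.091 (SE 0.20) for Tap1. H2-K1 was at -0.052 (SE 0.12) and B2m at -0.062 (SE 0.093), and H2-Aa, H2-Ab1 and Cd74 at -0.28, -0.30 and -0.28. Without the 5 choroid plexus-rich males H2-Aa, H2-Ab1 and Cd74 were at 0.21, 0.24 and 0.18. Leaving them out keeps 2 control males and 3 nPM males, and 8 of 10 members then had a positive value with a median of 0.13. None of these class II values, in females or males, reached p under 0.05 in limma. With the choroid plexus level as a covariate the class II signs did not turn, at 0.25, 0.13 and 0.26 for H2-Aa, H2-Ab1 and Cd74 in females, where 10 of 10 members were positive with a median of 0.22, and at -0.18, -0.26 and -0.25 in males. Without nPM male 1 the male count was 0 of 10.

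The interaction, male minus female response, was negative for 10 of 10 members with a median of -0.44, beside 52.5% of all genes with a positive value. It was -0.46 (SE 0.24, adjusted p = 0.987 in limma) for H2-K1, -0.57 (SE 0.34) for Psmb9 and -0.97 (SE 1.3) for H2-Aa. Without the 7 choroid plexus-rich samples 7 of 10 were positive with a median of 0.12, while with the choroid plexus level as a covariate 0 of 10 were positive with a median of -0.38. A difference of the sexes in their response was thus not detectable for these genes, and the 10 genes, which rise and fall together across samples, are not 10 independent observations of it.

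**Figure D3:**
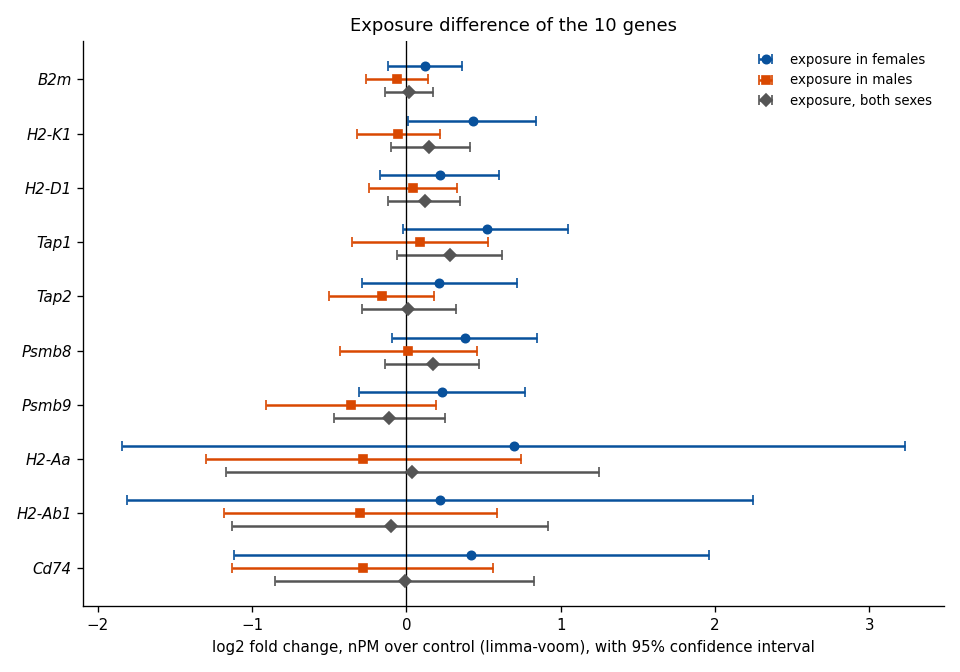
Log2 fold change of nPM over control in limma-voom with 95% confidence intervals, for females (circles), males (squares) and both sexes (diamonds). The interval of H2-K1 in females, at 0.43, just clears 0, the other intervals span 0, and those of H2-Aa, H2-Ab1 and Cd74 are the widest.

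In the wider pathway no gene passed either. Of 57 matched genes of an antigen presentation list that leaves out the members, 51 were tested and 0 had p under 0.005 in each of the 4 exposure fits by limma, with 1, 1, 1 and 4 at p under 0.05 for both sexes, females, males and the interaction. In females 41 of 51 had a positive value with a median of 0.12, beside 51.2% of all genes, and in males 17 of 51 with a median of -0.034. Without the choroid plexus-rich samples the female count was 28 of 51 with a median of 0.008. Irf1, an interferon-induced activator of class I genes, was at 0.42 (SE 0.21) in females and -0.18 (SE 0.10) in males, with an interaction of -0.59 (SE 0.23, adjusted p = 0.987 in limma). Nlrc5 was at 0.37 (SE 0.28) in females and 0.14 (SE 0.24) in males. H2-Eb1 was at 0.55 (SE 0.61) in females and -0.21 (SE 0.31) in males. Of 24 interferon-stimulated genes, 22 were tested, and 21 had a positive value in females with a median of 0.42, against 10 of 22 in males with a median of -0.011. None had p under 0.005 in these fits by limma, and 5 of 22 had p under 0.05 in females, beside 1.99% of all genes. That 5 became 0 without the choroid plexus-rich samples, 2 with either the choroid plexus or the meningeal level as a covariate and 1 with age as a covariate. It was 6 with edgeR and 7 with either DESeq2 or quality weights. With 1 sample left out it ran from 1 (as without control female 3) to 9 (without nPM female 4). The share of all genes at p under 0.05 in these settings is not given here. Without the choroid plexus-rich samples 18 of 22 had a positive value in females with a median of 0.14, and 14 of 22 in males.

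Between the sexes 1 member differed. B2m was higher in males, with a log2 difference of 0.26 (SE 0.074, n = 10 per sex, p = 0.00192, adjusted p = 0.00754 in limma), or 1.20 times the female level with a 95% interval of 1.08 to 1.34. In this fit, with exposure as a covariate, 31.1% of all genes had p under 0.005, 48.4% p under 0.05 and 40.4% an adjusted p under 0.05, so 1 of 10 members lies below the background. H2-Aa was at 1.30 (SE 0.62, adjusted p = 0.0994 in limma). H2-K1 was at 0.25 (SE 0.12), Psmb8 at 0.27 (SE 0.15), H2-Ab1 at 0.78 (SE 0.51) and Cd74 at 0.64 (SE 0.41), while Tap1 and Tap2 were at 0.018 and -0.065. Of the members 9 of 10 had a positive value, with a median of 0.26 beside 0.019 over all genes. Of the 7 choroid plexus-rich samples 5 were male. Without these 7 samples B2m was at 0.21 and missed p under 0.005 in limma, and H2-Aa was at 1.45. B2m also missed p under 0.005 with the choroid plexus level as a covariate (0.21) and without nPM female 4 (0.23).

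In the same fit 12 of the 51 other pathway genes, or 23.5%, had p under 0.005 in limma, 11 higher and 1 lower in males, beside the 31.1% of all genes, so this share too lies below the background. Without the choroid plexus-rich samples 2 of 51 had p under 0.005 in limma. Over all 19797 genes the number fell as well, from 6147 to 2940. Those higher were proteasome genes, namely the constitutive subunits Psmb6 (0.35, SE 0.067) and Psmb7 (0.29, SE 0.055), the inducible subunit Psmb10 (0.38, SE 0.089) and the activator subunits Psme1 (0.42, SE 0.095) and Psme2 (0.31, SE 0.079). They also held the lysosomal proteases Ctss (0.25, SE 0.065), Ctsl (0.31, SE 0.086), Ctsb (0.24, SE 0.057) and Lgmn (0.27, SE 0.061). The chaperone Canx (0.30, SE 0.059) and Rfxap, a subunit of the factor that binds the X box of MHC promoters (0.30, SE 0.059), were the others. H2-T24, a non-classical class I gene, was lower in males (-0.48, SE 0.14).

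Across samples the 10 genes rose and fell together. Pearson's r of log2 CPM, centred within each group, was positive for 45 of 45 pairs of members, with a median of 0.56 (0.13 to 0.92), and 29 pairs had an adjusted permutation p under 0.05. With the 2 farthest samples left out of each pair the median was 0.51. Here and below, these 2 samples were those farthest from the median of a single gene or marker sum of the pair, before centring. Extremes of its partner may therefore remain. The tightest pair crossed the classes, since H2-K1 and H2-Ab1 had r = 0.92 (Spearman's rho 0.84, adjusted permutation p = 0.00165 and 0.00189 for r and rho, and r = 0.86 without the 2 farthest samples). Within class II, r was 0.88 for H2-Ab1 and Cd74 (rho 0.83, adjusted permutation p = 0.00157 and 0.00189, r = 0.84 without the 2 farthest). H2-Aa had r = 0.77 with Cd74 (rho 0.77, adjusted permutation p = 0.0163 and 0.0102) and 0.76 with H2-Ab1 (rho 0.78, adjusted permutation p = 0.0163 and 0.0102), and these became 0.88 and 0.93 without the 2 farthest. The transporter subunit Tap2 went with both classes, at 0.85 with H2-K1 (rho 0.85, adjusted permutation p = 0.00247 and 0.00135, r = 0.74 without the 2 farthest) and 0.85 with H2-Ab1 (rho 0.73, adjusted permutation p = 0.00247 and 0.00420, r = 0.65 without the 2 farthest). H2-K1 and H2-Aa, whose upstream sequences are printed above, had r = 0.76 (rho 0.85, adjusted permutation p = 0.00545 and 0.00189, r = 0.80 without the 2 farthest). B2m and Psmb8 were the loosest pair, at 0.13 (rho 0.10, adjusted permutation p = 0.566 and 0.664, r = 0.23 without the 2 farthest). Psmb9 and Tap1, whose starts are neighbours, had r = 0.53 (rho 0.61, adjusted permutation p = 0.0317 and 0.0202, r = 0.47 without the 2 farthest), a value near the median.

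**Figure D4:**
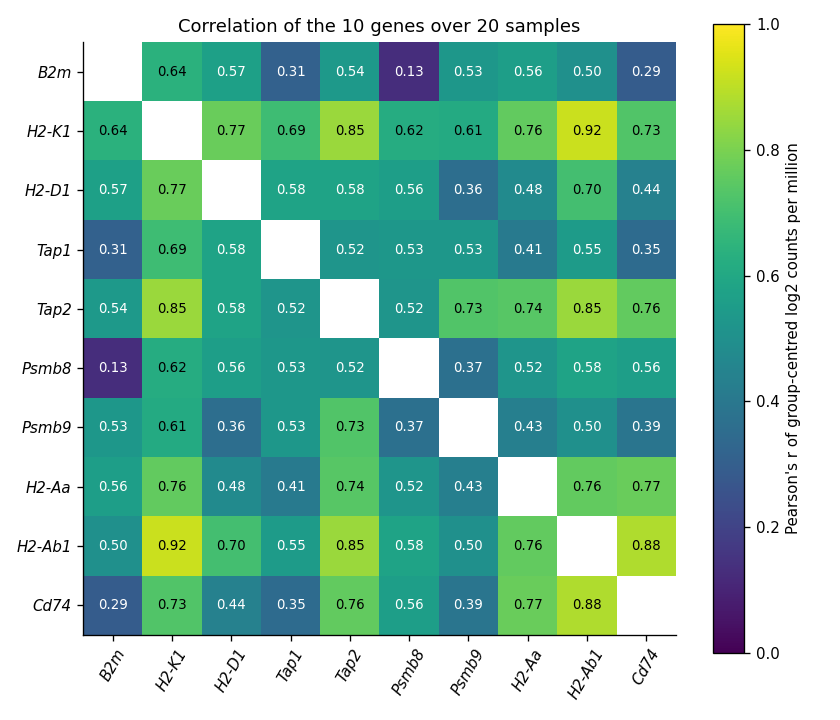
Pearson's r between the 10 genes over 20 samples, on log2 CPM centred within each group. All values are above 0, from 0.13 for B2m with Psmb8 to 0.92 for H2-K1 with H2-Ab1.

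The genes most alike in profile to H2-Ab1 over the 20 samples, members left out, were Emilin1 (r = 0.93), Shc1 (0.92), Serping1 (0.91), Tgfbi (0.89) and Tnfrsf1a (0.88). Among all genes tested H2-K1 stood 3rd and Cd74 6th for H2-Ab1, while the other members ran from Tap2 at rank 21 to B2m at rank 2655. The genes most alike to H2-K1 were Shc1 (r = 0.93), Inmt (0.92), Tnfrsf1a (0.92), Gstt3 (0.91) and Bgn (0.91). Of all genes tested 13.2% had r over 0.5 with H2-Ab1 and 14.9% with H2-K1, so such values were not particular to the members. Emilin1, Tgfbi and Bgn encode proteins of the extracellular matrix, and Serping1 the inhibitor of complement C1. Psmb8 was most like Rnf213 (r = 0.81), a large ubiquitin ligase, then Rrbp1 (0.79), Tpcn2 (0.77), Nid1 (0.77) and Flnc (0.76). As these genes were the highest of 19797, their r is a description.

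Marker levels of border cells moved with members of both classes. Cd74 had r = 0.83 with the summed border macrophage markers Mrc1, Cd163, Pf4, Lyve1, F13a1, Ms4a7, Cbr2 and Stab1 (rho 0.81, adjusted permutation p = 0.0116 and 0.0107 over 80 pairs, r = 0.68 without the 2 farthest samples). H2-Ab1 had r = 0.80 with them (rho 0.77, adjusted permutation p = 0.0147 and 0.0154, r = 0.69 without the 2 farthest) and H2-Aa 0.75 (rho 0.81, adjusted permutation p = 0.0147 and 0.0138, r = 0.77 without the 2 farthest). Of the class I branch, H2-D1 had r = 0.68 (rho 0.50, adjusted permutation p = 0.0342 and 0.0687, r = 0.61 without the 2 farthest) and Tap2 0.74 (rho 0.57, adjusted permutation p = 0.0457 and 0.0496, r = 0.61 without the 2 farthest). These markers were lowest, at 16.0 CPM, in nPM female 4 and highest, at 54.0 CPM, in nPM female 5, which were also the lowest and highest samples of H2-Ab1. The 6 meningeal fibroblast markers summed to 19.3 to 152 CPM. With them Cd74 had r = 0.80 (rho 0.76, adjusted permutation p = 0.0147 and 0.0196, r = 0.67 without the 2 farthest) and H2-Ab1 0.74 (rho 0.78, adjusted permutation p = 0.0209 and 0.0154, r = 0.64 without the 2 farthest). H2-D1 had 0.64 (rho 0.51, adjusted permutation p = 0.0271 and 0.0598, r = 0.61 without the 2 farthest). Choroid plexus markers gave the highest r for Tap2, 0.70 (rho 0.81, adjusted permutation p = 0.0158 and 0.0107, r = 0.74 without the 2 farthest). Next were r = 0.66 for H2-Aa (rho 0.68, adjusted permutation p = 0.0158 and 0.0172, r = 0.69 without the 2 farthest) and, lower down, 0.56 for H2-Ab1 (rho 0.59, adjusted permutation p = 0.0544 and 0.0427, r = 0.53 without the 2 farthest). Of the 10 members 5 had an adjusted permutation p under 0.05 for r with the border macrophage markers, 3 with the meningeal and 2 with the choroid plexus markers. Such values were not particular to border cells, since oligodendrocyte markers had 5 as well and microglia markers 3.

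The 8 summed markers of microglia, the resident macrophages of the brain, were 216 to 345 CPM and had r = 0.75 with H2-K1 (rho 0.64, adjusted permutation p = 0.0334 and 0.0427, r = 0.51 without the 2 farthest) and 0.59 with B2m (rho 0.71, adjusted permutation p = 0.0364 and 0.0154, r = 0.62 without the 2 farthest). With Cd74 r was 0.35 (rho 0.22, adjusted permutation p = 0.407 and 0.465) and turned to -0.12 without the 2 farthest samples. H2-Ab1 had r = 0.60 with microglia (rho 0.36, adjusted permutation p = 0.123 and 0.303, r = 0.54 without the 2 farthest), H2-Aa 0.50 (rho 0.48, adjusted permutation p = 0.182 and 0.128, r = 0.49 without the 2 farthest) and Psmb8 0.35 (rho 0.27, adjusted permutation p = 0.320 and 0.343, r = 0.33 without the 2 farthest). Oligodendrocyte markers had r = 0.70 with H2-K1 (rho 0.64, adjusted permutation p = 0.0125 and 0.0186, r = 0.62 without the 2 farthest) and 0.57 with B2m (rho 0.54, adjusted permutation p = 0.0457 and 0.0427, r = 0.70 without the 2 farthest). Their r with Tap1 was 0.62 (rho 0.71, adjusted permutation p = 0.0116 and 0.0107, r = 0.67 without the 2 farthest). Over the 10 members the median r was 0.68 for border macrophages, 0.60 for meningeal fibroblasts, 0.58 for microglia, 0.56 for choroid plexus, 0.54 for both oligodendrocytes and endothelium, 0.23 for astrocytes and -0.53 for neurons. The part of these cells in the differences above was not tested.

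**Figure D5:**
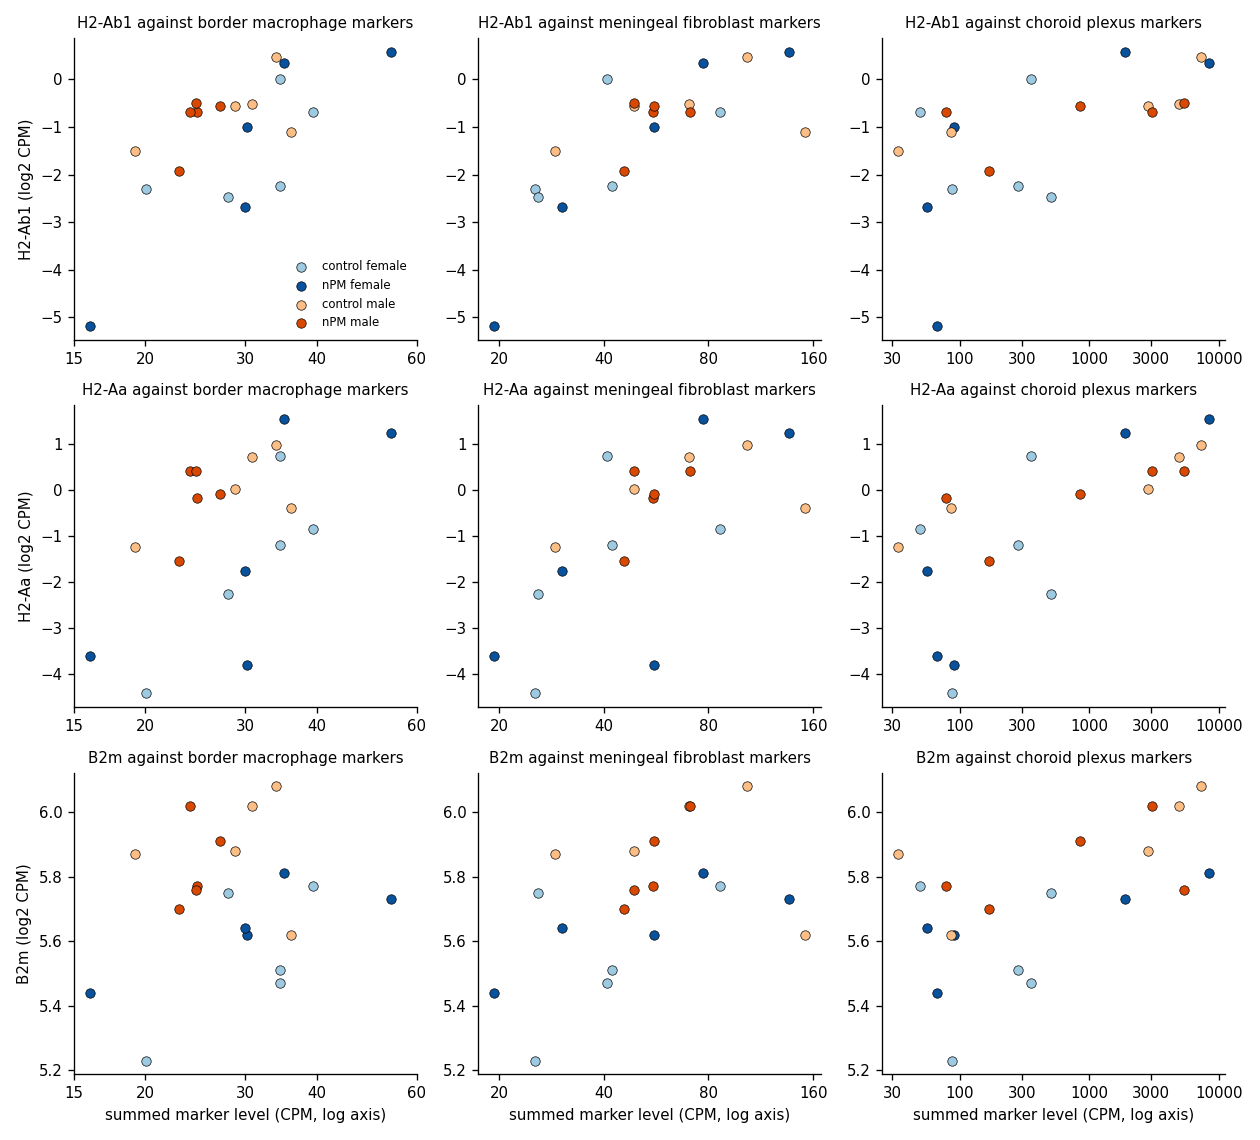
Log2 CPM of H2-Ab1, H2-Aa and B2m (rows) against the summed CPM, on a log axis, of border macrophage, meningeal fibroblast and choroid plexus markers (columns), with a point per sample. nPM female 4 is the lowest point of H2-Ab1 and of the border macrophage sum (16.0 CPM), and nPM female 5 the highest of both (54.0 CPM).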

How the data were processed

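After ribosomal depletion, the authors used HISAT2 (mm10) for alignment and featureCounts 1.5.0-p3 (Gencode M11) for counting, and deposited raw counts of 48709 genes. A second deposited table held gene length and mean RPKM by the authors, and RPKM recomputed from the counts differed from that mean by at most 4.37e-11. Per-sample RPKM and CPM were computed here from total counts, and no fit used them as the gene values tested. The log2 summed CPM of marker lists served as the choroid plexus and meningeal covariates. Summed CPM also set which samples were choroid plexus-rich.

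The filterByExpr function (4 groups, minimum count 10, minimum total 15) left 19797 genes, and TMM factors (edgeR 4.0.16) were 0.958 to 1.06. limma-voom (limma 3.58.1, R 4.3.3, offset 0.5 counts, empirical Bayes) was fitted with thresholds of p under 0.005, as in the study, and a Benjamini-Hochberg adjusted p under 0.05. Models took exposure adjusted for sex, exposure within each sex, the interaction, and sex adjusted for exposure. They were tested on simulated counts. Within groups, 40 sample pairs had squared differences 14.1 to 76.7 times those of counting noise, so no library was counted as a duplicate. Exact permutation tests (two-sided) compared log2 CPM within a sex. Correlations used log2 CPM centred within groups with 100000 permutations (scipy 1.17.1). Alternatives were edgeR, DESeq2 1.42.0, RLE normalization, other filters, quality weights, a replicate block, age, a single fit of the 4 groups, and each sample left out. Choroid plexus and meningeal levels as covariates, and the choroid plexus-rich samples left out, were chosen after seeing the data.

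The members and gene lists were chosen with earlier results of these data known. The genes named are the members, pathway genes with p under 0.005 in any fit, further pathway genes fixed as levels (of which 1 is not reported here), and the 5 genes most correlated with H2-Ab1, H2-K1 and Psmb8. The interferon genes Ifit2 and Stat2 passed in the sex fit, at 0.33 and -0.31. Lilrb4a of the pathway list had no match. RefSeq promoters (GRCm38.p6) gave the sequences, with no entry for H2-Ab1 and Tap2, and Cd74 was left out of the search. Overlaps were those of the gene spans in the deposited gene map.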

Additional observations from a re-analysis of the deposited data

Results flagged for a closer look

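Of 40 groups of 5 samples (10 genes in 4 groups) 3 held a sample set apart from the others, with a gap to its nearest neighbour above 0.71 of the group's range, and chance flags about 1 in 20 groups. nPM male 4 had the lowest H2-K1, at 3.45 log2 CPM against 3.78 to 3.90 in the other nPM males (395 counts against 453 to 547, gap 0.731). The same sample had the lowest H2-Ab1, at -1.93 log2 CPM against -0.68 to -0.49 (9 counts against 19 to 24, gap 0.867). Control female 1 had the highest H2-D1, at 4.38 log2 CPM against 3.70 to 3.89 in the other control females (649 counts against 313 to 533, gap 0.717). nPM male 4 also had the lowest sum of meningeal fibroblast markers among nPM males (45.7 CPM) and the lowest sum of border macrophage markers (22.9 CPM). The part of these cells in its values was not tested.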

How the results depend on the processing

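Leaving out 1 sample at a time, 738 of 800 member values kept their direction and their side of p under 0.005, 60 changed sign, and B2m between the sexes and H2-K1 in females crossed the threshold. Under the other alternatives 495 of 545 did so, 46 changed sign and 4, all of B2m between the sexes, missed the threshold. No alternative outside the left-out samples gave a member p under 0.005 for exposure. The cause of these changes was not tested.

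Without the choroid plexus-rich samples, with both sexes Tap2 was at -0.02 and H2-Aa at -0.35. In females Tap2 was at -0.12, H2-Aa -1.25, H2-Ab1 -1.28 and Cd74 -0.82, and in males H2-K1 0.08, B2m 0.05, Tap2 0.10, Psmb8 0.00, H2-Aa 0.21, H2-Ab1 0.24 and Cd74 0.18. The interaction was 0.11 for H2-D1, 0.02 for B2m, 0.14 for Tap1, 0.22 for Tap2, 1.46 for H2-Aa, 1.52 for H2-Ab1 and 1.0 for Cd74, and Tap1 between the sexes was 0.00. With both sexes, H2-Ab1 and Cd74 turned to 0.17 and 0.12 with DESeq2, 0.18 and 0.13 with edgeR, 0.25 and 0.17 with the meningeal level as a covariate and 0.07 and 0.10 with quality weights. Tap2 was at -0.01 with age and with the choroid plexus level as a covariate, which also gave 0.04 for Cd74 and, between the sexes, -0.05 for Tap1. Quality weights also gave -0.02 for B2m and -0.23 for H2-Aa with both sexes, -0.04 for H2-Aa in females, -0.01 for Tap1 and -0.04 for Psmb8 in males, and -0.01 for H2-D1 between the sexes. The meningeal covariate gave interactions of 0.03 for H2-D1 and 0.01 for H2-Ab1, and sex differences of -0.01 for H2-D1 and -0.05 for Tap1, which was -0.02 with a minimum count of 50.

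Leaving out 1 sample, with both sexes B2m ran from -0.02 to 0.05, Cd74 from -0.24 to 0.17, H2-Aa from -0.22 to 0.28, H2-Ab1 from -0.32 to 0.22 and Tap2 from -0.08 to 0.11. In females Cd74 ran from -0.13 to 0.86, H2-Aa from -0.04 to 1.31 and H2-Ab1 from -0.35 to 0.97. In males H2-Aa ran from -0.57 to 0.07, H2-Ab1 from -0.50 to 0.02, H2-D1 from -0.08 to 0.12, H2-K1 from -0.13 to 0.03, Psmb8 from -0.10 to 0.14 and Tap1 from -0.07 to 0.18. Between the sexes Tap1 ran from -0.08 to 0.10 and Tap2 from -0.17 to 0.03, and the interaction of H2-Ab1 from -1.26 to 0.06.

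Genes with p under 0.005 over all genes were 28 with both sexes, 43 with DESeq2, 71 with no filter, 15 with a minimum count of 50, 53 with quality weights and 14 without the choroid plexus-rich samples. Leaving out 1 sample gave 17 (without control female 1) to 47 (without nPM female 4). In females 18 became 55 with DESeq2, 75 with no filter, 44 with weights and 29 without the choroid plexus-rich samples, or 10 (without nPM female 5) to 48 (without nPM female 4). In males 41 became 113 with DESeq2, 104 with no filter and 74 with the choroid plexus covariate, or 23 (without nPM male 5) to 78 (without nPM male 4). For the interaction 43 became 66 with edgeR, 89 with DESeq2, 149 with no filter, 23 with a minimum count of 50 and with the meningeal covariate, and 135 without the choroid plexus-rich samples, or 24 (without control female 3) to 77 (without control female 1). Between the sexes 6147 became 2940 without the choroid plexus-rich samples, and 5485 to 6334 with 1 sample left out. The 1 member called between the sexes became 0 with a minimum count of 50 and with either covariate, with the choroid plexus-rich samples left out, and 0 to 1 with 1 sample left out. In females 0 became 0 to 1.

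Same-numbered control and nPM samples had correlations from -0.364 to 0.157 after centring on group means. Differently numbered ones of the same sex had correlations from -0.279 to 0.306. No sign of pairing by replicate number was thus seen. Centring balances these correlations around 0, so they cannot show that the numbers mark no shared litter, cage or batch. With a replicate block the counts were 20, 22, 35, 43 and 5739 for both sexes, females, males, the interaction and sex, and H2-Ab1 and Cd74 with both sexes were at 0.03 and 0.01. Depth limits Psmb9 and the class II genes most, with 0 to 133 counts per sample.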
